A study of Mus musculus with 8 samples.

Results

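Nuclear receptors are transcription factors whose activity is set by small fat-soluble ligands, and their genes were followed here in kidney cortex of mice labelled as lacking or carrying Sav1. The genes were taken from the deposited table in 2 ways, 25 because their symbol has the form of the systematic receptor nomenclature (Nr, a subfamily digit, a letter and a digit) and 20 from a list of receptors with trivial names, which gave 45 of the 21705 genes in the table. Messenger RNA libraries had been made from 4 cortex samples labelled Sav1-/- and given tamoxifen (called Sav1-null here) and from 4 labelled Sav1+/+ and given vehicle (called wild-type), all on a mixed background strain. The labels do not give age, sex, the driver of any Cre recombinase, the time after tamoxifen or the sequencing run. They do not state either that the libraries came from separate animals, so the spread between libraries may be partly technical. Column headers of the Sav1-null libraries differ in form from those of the wild-type libraries. The same closing numbers recur in the headers of both groups, and the labels do not say what they stand for. Sav1 encodes the salvador scaffold of the Hippo pathway, which restrains the co-activators YAP and TAZ, and the comparison asked what differs in cortex when it is lost. Tamoxifen is itself a ligand of the oestrogen receptor, so genotype and a nuclear receptor drug changed together and cannot be told apart.

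Most nuclear receptors share a central zinc-finger domain that reads short DNA elements and a carboxy-terminal pocket that takes up the ligand. Steroid receptors mostly act as pairs of like proteins, whereas receptors for retinoids, vitamin D, thyroid hormone, fatty acids, sterols and drugs bind DNA with a retinoid X receptor (RXR) as partner. In kidney they are known for salt balance (mineralocorticoid receptor), calcium and phosphate (vitamin D receptor), and the oxidative metabolism of the proximal tubule (PPARα and the oestrogen-related receptors).

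Values are normalized expression levels as deposited, scaled so that the upper quartile of the values above 0 lies at 1000 (999 in wild-type replicate 2). The libraries held about 15700000 to 20900000 reads in the Sav1-null group and 20500000 to 25000000 in the wild-type group. Sav1 itself was at 983, 914, 982 and 714 in the Sav1-null libraries, against 1504, 1743, 959 and 1193 in the wild-type libraries. The groups overlapped, and the fall was 1.48-fold (limma adjusted p = 0.0220), a call lost without wild-type replicate 1 (0.0613) or 2 (0.0571) and with equal library totals (0.376). It was also lost with no filter (0.0672). The name Sav1-null follows the label, since Sav1 reads remained in every library, and the labels do not say which exons the deletion removes. The X-inactivation transcript Xist stood at 12229 ± 2922 in the Sav1-null group, against a single read over the whole wild-type group. The Y-linked genes Ddx3y, Eif2s3y, Uty and Kdm5d had no read in Sav1-null libraries and means of 378 to 1205 in wild-type libraries. This is the pattern of female Sav1-null and male wild-type samples, so sex separated the same groups. Of the 14 markers of cortex segments fixed for this comparison, none was at 0 in every library, 7 fell and 2 rose, and their summed level was 76467 to 157162 in Sav1-null and 279001 to 308440.4 in wild-type libraries. The tubule injury marker Havcr1 stood at 16582, 8933, 10329.8 and 6275 in Sav1-null libraries, against 23.6, 1099, 665 and 15.5 in wild-type libraries (limma adjusted p = 0.00194), so it moved with the groups and was uneven within the wild-type group, and its part in the receptor changes was not tested. Sav1-null replicate 4 stood apart from the other 3 of its group on the second principal component (6.82% of the variance). Results whose call or direction changed without this library are also given without it.

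Of the 45 receptor genes, 33 averaged 10 or more across both groups together and were tested. Pgr and Nr1i3 averaged under 10 in wild-type libraries (7.66 and 3.89) and passed this filter only through their Sav1-null levels. The filter therefore favoured a rise of these genes. In Sav1-null cortex 10 fell and 9 rose, and 14 did not pass the test, where a call is a limma p adjusted over all 13677 tested genes of under 0.05. The 10 that fell were Esr1, Nr1h4, Nr1h3, Rxra, Thrb, Nr2f6, Vdr, Ppara, Esrra and Nr3c1. The 9 that rose were Nr1i2, Pgr, Rarg, Nr2c1, Nr3c2, Rarb, Nr4a1, Nr6a1 and Nr2c2. In all, 57.6% of the tested receptor genes were called, against 69.1% of all tested genes. The share lower was 30.3% against 25.2% of all tested genes, and the share higher 27.3% against 43.9%. Changes of 2-fold or more were called for 4 that rose and 4 that fell, where 23.1% of all tested genes rose and 9.51% fell as much. The groups did not overlap in 16 of the 33 (48.5%), against 65.2% of all tested genes, with 9 higher (background 41.0%) and 7 lower (background 24.1%). The median log2 fold change of the tested receptors was -0.023, beside 0.23 for all tested genes. Scaling moved these counts. Median-of-ratios rescaling shifted the median of all genes by -0.22, quantile normalization by -0.25 and equal library totals by 0.38 on the log2 scale. With median-of-ratios rescaling 7 receptors rose and 13 fell, with quantile normalization 5 rose and 9 fell, and with equal totals 15 rose and 5 fell. Of the 19 called receptors, 9 kept their call in each of the alternatives in which they were tested (Esr1, Pgr, Nr3c2, Rarg, Rxra, Nr1h3, Nr1h4, Nr1i2 and Nr2c1).

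**Figure D1:**
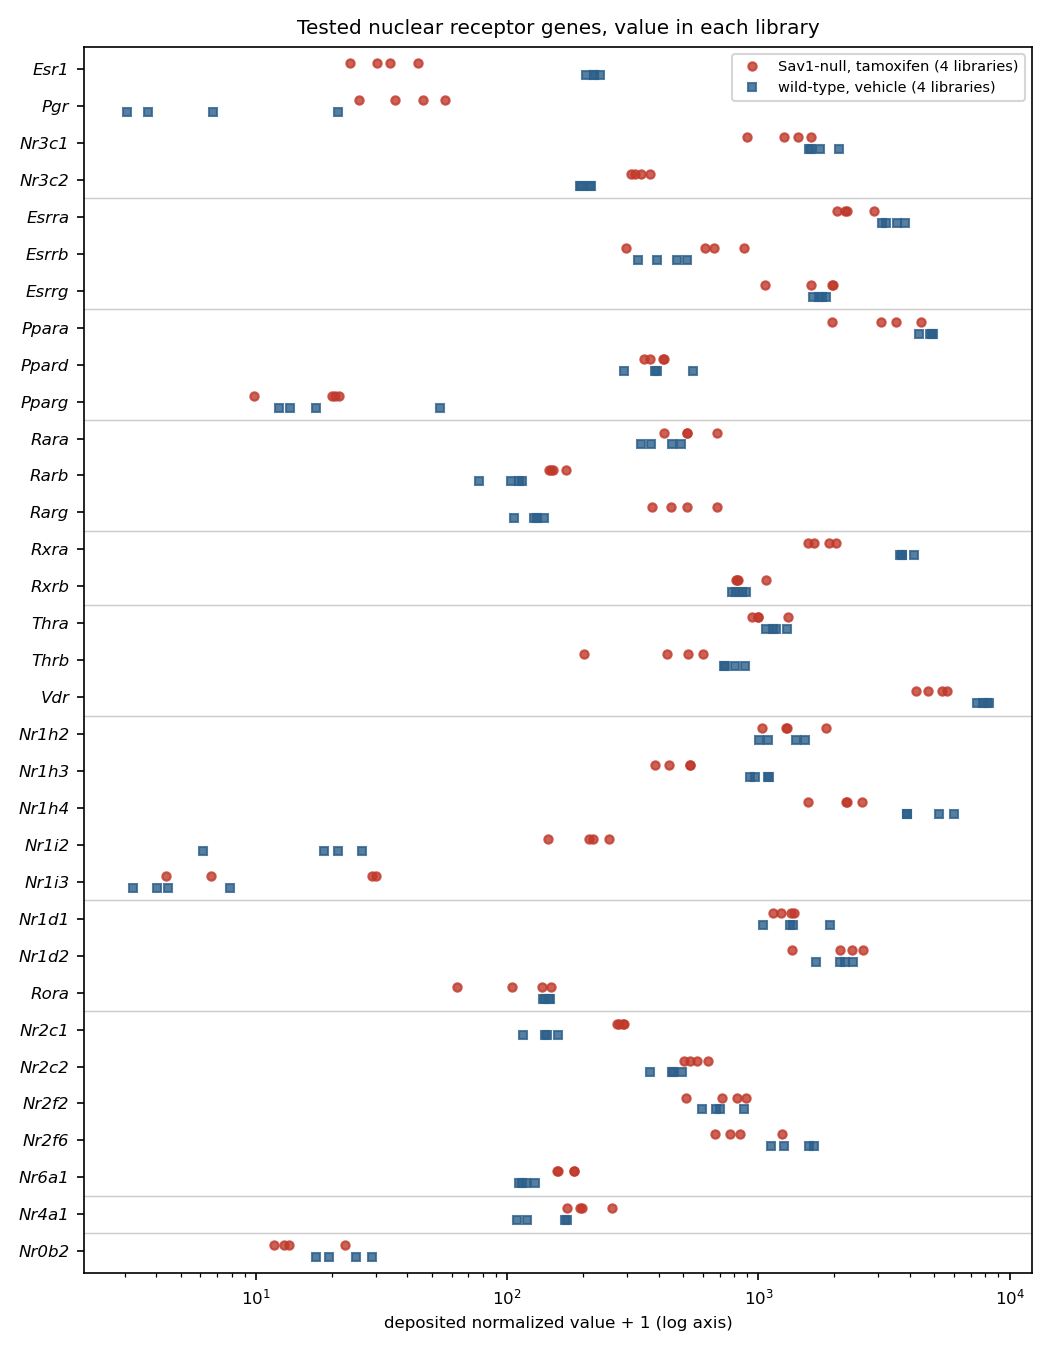
Deposited normalized value plus 1 (log axis) of the 33 tested receptor genes in each Sav1-null (circles) and wild-type (squares) library, grouped by receptor class. The Esr1 points of the Sav1-null libraries lie between 22.6 and 42.9, below all wild-type points, and those of Nr1i2 between 145 and 253, above all wild-type points.

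**Figure D2:**
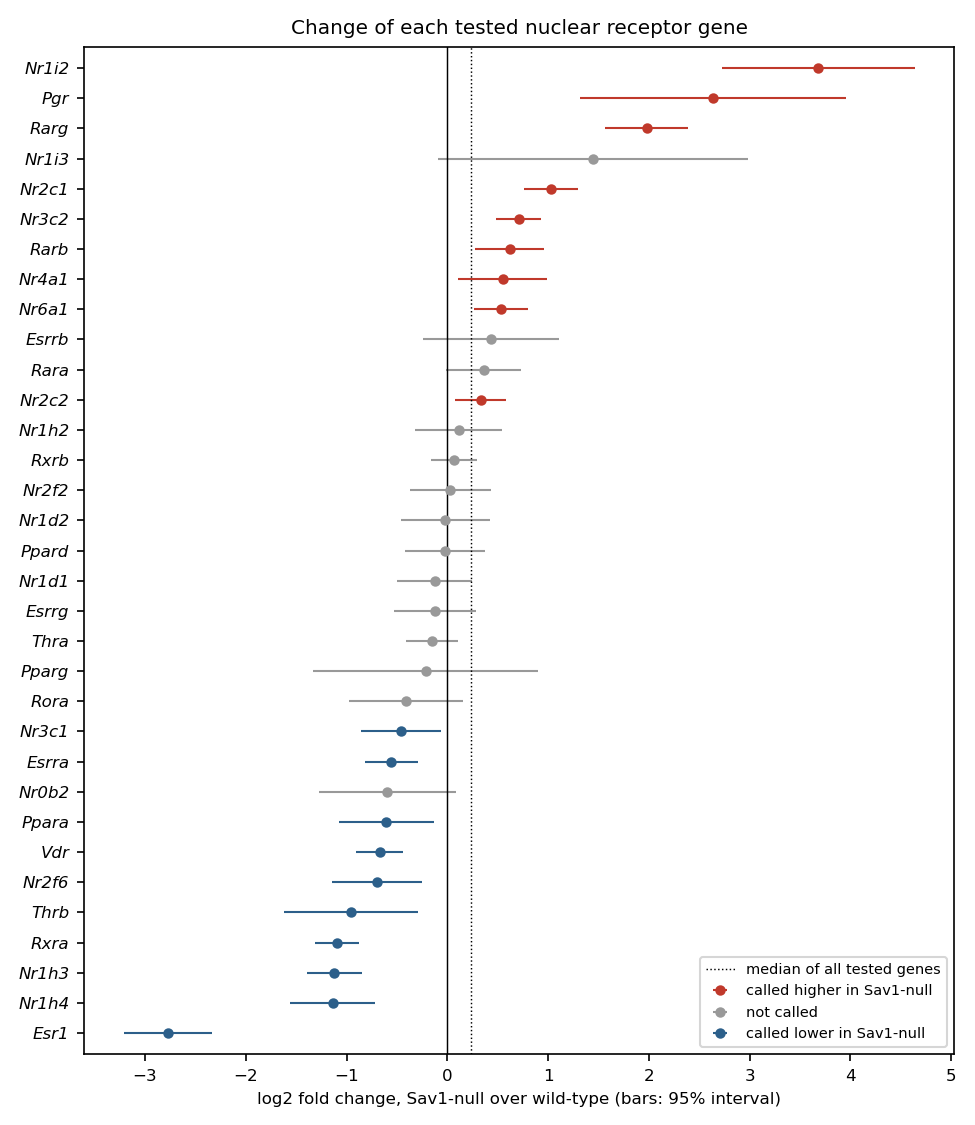
Log2 fold change (Sav1-null over wild-type) of the 33 tested receptor genes with its 95% interval from limma, in red where called higher and in blue where called lower. The changes run from 3.68 (Nr1i2) to -2.77 (Esr1), and the dotted line marks the median of all tested genes at 0.23.

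Among the 4 tested steroid receptor genes 2 fell (Esr1 and Nr3c1) and 2 rose (Pgr and Nr3c2). Esr1, which encodes oestrogen receptor α, was at 42.9, 29.3, 33.2 and 22.6 in the Sav1-null libraries, against 220.4, 205, 233 and 219.6 in the wild-type libraries. Each Sav1-null library was far below the lowest wild-type one, and the fall was 6.84-fold (log2 fold change -2.77 ± 0.19, SE, limma adjusted p = 3.52e-06). Esr2, the oestrogen receptor β gene, had 4 reads in the Sav1-null libraries together and none in the wild-type libraries, at most 1 read in any library. Pgr, the progesterone receptor gene and a classical oestrogen target in reproductive tissue, was at 45.3, 55.7, 34.8 and 24.6 in Sav1-null and 2.72, 20.1, 5.74 and 2.06 in wild-type libraries. These are low levels, the groups did not overlap, and Pgr rose 6.21-fold (log2 fold change 2.63 ± 0.58, limma adjusted p = 0.00291). The wild-type mean of Pgr, 7.66, was below the filter of 10, so Pgr was tested only through its Sav1-null level. The log2 fold change of Pgr was 3.54 without wild-type replicates 2 and 3, of which replicate 2 was the highest of its group, 1.61 with quantile normalization and 1.57 with a pseudocount of 10. That of Esr1 was -3.46 with quantile normalization. The genotype, the tamoxifen, the sex seen in the sex-chromosome transcripts and the form of the column headers separate the same libraries. Their parts in these differences, and that of any separate processing of the groups, cannot be told apart.

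The adrenal steroid receptors went in opposite directions. Nr3c2, which encodes the mineralocorticoid receptor through which aldosterone acts on the distal nephron, was at 370.1, 338, 322 and 309 in Sav1-null and 214, 213, 196 and 194 in wild-type libraries. All Sav1-null libraries were above all wild-type libraries, and it rose 1.63-fold (limma adjusted p = 0.000169). Nr3c1, the glucocorticoid receptor gene, was at 1625, 1258, 1435 and 899 in Sav1-null libraries, against 2095, 1614, 1762 and 1587 in wild-type libraries. Sav1-null replicate 1 lay above 2 wild-type libraries, the fall was 1.38-fold (limma adjusted p = 0.0397), and the adjusted p ran from 0.00550 to 0.680 over its alternatives. The call on Nr3c1 was lost without Sav1-null replicate 2 (limma adjusted p = 0.0794) and without wild-type replicate 1 (0.108), 2 (0.0530) or 3 (0.0761). It was also lost with quantile normalization (0.0736), equal totals (0.680), no trend (0.0582), no filter (0.104) and without wild-type replicates 2 and 3 (0.105). In bulk tissue fewer cells of a type and less RNA per cell cannot be told apart, here and for every gene below.

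Of the oestrogen-related receptors, orphan relatives of the oestrogen receptor that drive genes of mitochondrial respiration, Esrra fell and the other two did not pass the test. Esrra was at 2046, 2205, 2245 and 2879 in Sav1-null and 3218, 3101, 3820.1 and 3573 in wild-type libraries, with no overlap and a 1.47-fold fall (limma adjusted p = 0.00216, 8.64e-05 to 0.239 over its alternatives). This call was lost with quantile normalization (-0.32 on the log2 scale, limma adjusted p = 0.0623) and with equal totals (-0.17, limma adjusted p = 0.239). Esrrb was at 663, 613, 876 and 297 in Sav1-null libraries, against 331, 395, 474 and 519 in wild-type libraries. Here 3 Sav1-null libraries were above the whole wild-type group and replicate 4 was below it (95% interval of the log2 fold change -0.24 to 1.10). Without Sav1-null replicate 4 Esrrb passed the test (log2 fold change 0.74, limma adjusted p = 0.00368, 0.00368 to 0.599 over its alternatives), as it did with equal totals (0.0244). Esrrg was at 1969, 1619.7, 1984 and 1065 in Sav1-null and 1649.5, 1782, 1862 and 1746 in wild-type libraries, again with replicate 4 lowest (interval -0.53 to 0.28). Its log2 fold change of -0.13 turned to 0.073 without that library.

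Of the 3 fatty acid receptor genes Ppara fell and the other two did not pass the test. Ppara, whose product turns on fatty acid oxidation in fasting liver and in proximal tubule, was at 3524, 3084, 4425 and 1966 in Sav1-null libraries, against 4357, 4916, 4811 and 4942 in wild-type libraries. Sav1-null replicate 3 reached into the wild-type range and replicate 4 was the lowest library, and the fall was 1.52-fold (limma adjusted p = 0.0269, 0.00521 to 0.314 over its alternatives). The Ppara call was lost without Sav1-null replicate 2 (limma adjusted p = 0.0574), without wild-type replicate 2 (0.0590), 3 (0.0565) or 4 (0.0607) or both 2 and 3 (0.133), and with quantile normalization (0.273), equal totals (0.314) or no filter (0.0812). Ppard, the more widely expressed PPARδ gene, averaged 388 ± 34.1 in Sav1-null and 403 ± 106 in wild-type libraries (SD, n = 4 each; log2 interval -0.42 to 0.37). Pparg, the receptor gene of fat cells, was at 20.3, 8.80, 19.0 and 19.7 in Sav1-null and 12.7, 52.8, 16.3 and 11.3 in wild-type libraries, so wild-type replicate 2 alone was high. Its log2 fold change of -0.22 (interval -1.33 to 0.90) turned to 0.26 without that library, to 0.053 without Sav1-null replicate 2 and to 0.14 with equal totals, and quantile normalization called it lower (-1.29, limma adjusted p = 0.0327). Fat surrounds the kidney, and 12 fat cell markers were followed, of which Lep and Retn were at 0 in every library, 3 were tested and 1 fell. Their summed level was 962 to 1423 in Sav1-null and 1173 to 1357 in wild-type libraries, and its part in the Pparg values was not tested.

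Among the retinoid receptors Rarg and Rarb rose (Rarb with a turn under quantile normalization), Rxra fell, and Rara and Rxrb did not pass the test. Rarg, the receptor gene of skin and other lining epithelia, was at 377, 516, 446 and 682 in Sav1-null and 139, 131, 126 and 105 in wild-type libraries. The lowest Sav1-null library was more than 2-fold above the highest wild-type library, and the rise was 3.94-fold (log2 fold change 1.98 ± 0.18, limma adjusted p = 1.40e-05). Rarb, itself a direct retinoic acid target, was at 145, 151, 169.9 and 148 in Sav1-null libraries, against 102, 111, 113 and 76.3 in wild-type libraries, a 1.53-fold rise without overlap (limma adjusted p = 0.00550). With quantile normalization Rarb turned to -0.094 (limma adjusted p = 0.543, 0.000263 to 0.543 over its alternatives). Rara was at 516, 516, 421 and 684 in Sav1-null and 374, 341, 493 and 451 in wild-type libraries and did not pass the test (log2 fold change 0.36, interval -0.016 to 0.73). It passed without Sav1-null replicate 3 (limma adjusted p = 0.0319), without wild-type replicate 3 (0.0498) and with equal totals (0.00352), the range over its alternatives being 0.00352 to 0.550.

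Rxra, the RXR gene with the highest mean level per kilobase in both groups (Rxrb was above it in Sav1-null replicate 4), was at 1906, 1662, 2039.9 and 1577 in Sav1-null and 3651, 3738, 3732 and 4173 in wild-type libraries. The fall was 2.14-fold with no overlap (log2 fold change -1.10 ± 0.10, limma adjusted p = 1.08e-05). Rxrb was at 814, 829.9, 821 and 1066 in Sav1-null libraries, against 784, 815, 888 and 858 in wild-type libraries, with a log2 interval of -0.16 to 0.30. Equal totals called Rxrb higher (0.45, limma adjusted p = 0.00483), and its direction turned without Sav1-null replicate 4 (-0.024). Rxrg stayed at 4 reads over the Sav1-null group and 8 over the wild-type group.

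For 3 retinoid receptor genes that changed and for Nr1h4, described below, the 250 bases before a RefSeq start site are shown, because Rarb carries a known retinoic acid element there and the other 3 hold a receptor half-site. Sequences are from RefSeq, build GRCm38.p6, and run 5′ to 3′ on the strand of the gene. The deposited data were made on mm9 and carry no coordinates. Capitals mark matches on either strand, to GTTCA repeated after 6 bases of any kind (a direct repeat of the retinoic acid type) in Rarb and to AGGTCA (the half-site that many receptors read) or its complement TGACCT in the other 3.
Rarb, GRCm38.p6 chr14:16575477-16575726, minus strand: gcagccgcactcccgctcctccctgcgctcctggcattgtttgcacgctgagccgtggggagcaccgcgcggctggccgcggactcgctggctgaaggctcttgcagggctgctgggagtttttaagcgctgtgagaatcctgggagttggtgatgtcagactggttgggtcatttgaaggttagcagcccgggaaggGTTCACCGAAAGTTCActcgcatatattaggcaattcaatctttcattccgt
Rarg, GRCm38.p6 chr15:102257523-102257772, minus strand: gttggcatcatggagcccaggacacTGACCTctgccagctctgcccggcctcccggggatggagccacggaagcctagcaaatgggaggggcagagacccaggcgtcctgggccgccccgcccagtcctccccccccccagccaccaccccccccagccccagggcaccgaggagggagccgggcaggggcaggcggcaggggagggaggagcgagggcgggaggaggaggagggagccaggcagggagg
Rxra, GRCm38.p6 chr2:27709042-27709291, plus strand: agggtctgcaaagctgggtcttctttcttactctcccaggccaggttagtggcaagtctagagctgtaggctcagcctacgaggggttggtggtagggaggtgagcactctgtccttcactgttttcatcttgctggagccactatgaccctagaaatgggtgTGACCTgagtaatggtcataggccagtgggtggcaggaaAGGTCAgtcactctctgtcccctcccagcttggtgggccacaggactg
Nr1h4, GRCm38.p6 chr10:89506659-89506908, minus strand: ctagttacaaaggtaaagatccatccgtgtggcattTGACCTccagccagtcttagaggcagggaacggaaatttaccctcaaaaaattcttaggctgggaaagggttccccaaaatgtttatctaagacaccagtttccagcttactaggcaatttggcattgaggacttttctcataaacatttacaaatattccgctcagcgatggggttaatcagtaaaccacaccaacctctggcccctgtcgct
The match in Rarb ended 36 bases before the start site, and 22 of 32851 such windows in the mouse table (0.0670%) held the same motif. The half-site stood once in the Rarg window, 2 times in the window of one of the 2 listed Rxra starts and once in that of Nr1h4. Of the 42 receptor genes with a listed window 10 held it in at least 1 window (11 of 62 windows), against 14.0% of all windows. A match describes the letters only.

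Of the vitamin D and thyroid hormone receptor genes Vdr and Thrb fell and Thra did not pass the test. Vdr, the vitamin D receptor gene, was at 4743, 5389, 5653 and 4221 in Sav1-null libraries, against 7845, 8271, 8162 and 7409 in wild-type libraries. The groups did not overlap and the fall was 1.59-fold (limma adjusted p = 0.000316, 3.36e-05 to 0.256 over its alternatives), a call lost with quantile normalization (-0.15, limma adjusted p = 0.256). Thrb, which encodes thyroid hormone receptor β, was at 522, 430.1, 600.4 and 201 in Sav1-null and 734, 885, 731 and 809 in wild-type libraries, with replicate 4 far below the other Sav1-null libraries. It fell 1.94-fold (log2 fold change -0.95 ± 0.30, limma adjusted p = 0.0164, 0.00136 to 0.0913 over its alternatives) and by 0.62 on the log2 scale without replicate 4. That call was lost with equal totals (0.0858), no filter (0.0590) and without wild-type replicates 2 and 3 (0.0913). Thra, the thyroid hormone receptor α gene, was at 992, 998, 945 and 1310.3 in Sav1-null and 1175, 1074, 1301 and 1146 in wild-type libraries and did not pass the test (interval -0.41 to 0.10). Without Sav1-null replicate 4, the highest of its group, Thra was called lower (-0.26, limma adjusted p = 0.0118, 0.0118 to 0.480 over its alternatives), as it was after median-of-ratios rescaling (0.0192).

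Of the bile acid and oxysterol receptor genes Nr1h4 and Nr1h3 fell and Nr1h2 did not pass the test, and the drug receptor gene Nr1i2 rose. Nr1h4 encodes the farnesoid X receptor, the bile acid sensor, and was at 2236, 2244, 2591 and 1567 in Sav1-null libraries, against 3900.2, 3886, 5234 and 6015 in wild-type libraries. It fell 2.20-fold without overlap (limma adjusted p = 0.000483). Nr1h3, which encodes liver X receptor α, a sensor of oxidised cholesterol, was at 533, 439, 532 and 386 in Sav1-null and 928, 1096, 969 and 1094 in wild-type libraries. This gene also fell 2.17-fold without overlap (limma adjusted p = 3.67e-05). Nr1h2, the liver X receptor β gene, was at 1285, 1298, 1034 and 1862 in Sav1-null libraries, against 1002, 1092, 1526 and 1406 in wild-type libraries, with overlapping groups and an interval of -0.32 to 0.55. Equal totals called it higher (limma adjusted p = 0.0464, 0.0464 to 0.964 over its alternatives), and its log2 fold change of 0.11 turned to -0.046 without Sav1-null replicate 4.

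Nr1i2 encodes the pregnane X receptor (PXR), which turns on drug-metabolising enzymes, and showed the largest rise of the 33 tested receptors. It was at 253, 211, 219 and 145 in Sav1-null and 25.4, 17.6, 20.1 and 5.15 in wild-type libraries, so that every Sav1-null library exceeded the highest wild-type library more than 2-fold. The rise was 12.8-fold (log2 fold change 3.68 ± 0.42, limma adjusted p = 5.38e-05), and the log2 fold change was 2.76 with quantile normalization and 3.04 with a pseudocount of 10. Nr1i3, the constitutive androstane receptor (CAR) gene, was at 5.61, 27.9, 28.9 and 3.36 in Sav1-null libraries, against 2.22, 6.86, 3.03 and 3.44 in wild-type libraries. Only Sav1-null replicates 2 and 3 were above the wild-type range, and the gene did not pass the test (interval -0.091 to 2.98). Without Sav1-null replicate 4 it did (log2 fold change 1.95, limma adjusted p = 0.0151, 0.0151 to 0.562 over its alternatives), as with equal totals (0.0357). Nr1i3 passed the filter only through the Sav1-null libraries (mean 16.4, against 3.89 in wild-type libraries), so these calls are no separate support for a rise. Nr1h5, a farnesoid X receptor β gene in mouse, had 5 reads in the Sav1-null libraries together and none in the wild-type libraries.

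The 3 tested clock receptor genes did not pass the test (limma adjusted p = 0.521 for Nr1d1, 0.933 for Nr1d2 and 0.169 for Rora). Nr1d1 and Nr1d2 encode the REV-ERB repressors that feed back on the circadian clock. Nr1d1 averaged 1274 ± 109 in Sav1-null and 1420.4 ± 372 in wild-type libraries, with an interval of -0.50 to 0.25 on the log2 scale. Nr1d2 averaged 2111 ± 539.5 in Sav1-null libraries, against 2097 ± 295 in wild-type libraries, with an interval of -0.46 to 0.42. Both directions turned with equal totals, that of Nr1d1 also without wild-type replicate 3 (0.035) and that of Nr1d2 without Sav1-null replicate 4 (0.18). Rora, which encodes the activator ROR α that competes with REV-ERB for the same elements, was at 136, 104, 149 and 62.0 in Sav1-null and 141, 137, 146 and 145 in wild-type libraries. The wild-type libraries were tightly grouped and Sav1-null replicates 1, 2 and 4 lay below them (interval -0.98 to 0.15), and Rora was called lower after median-of-ratios rescaling (limma adjusted p = 0.0435) and quantile normalization (0.00424), with 0.00424 to 0.910 over its alternatives. Rorb, a related gene of retina and brain, had 9 reads over the Sav1-null group and 2 over the wild-type group.

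Of the orphan receptors, which have no agreed natural ligand, 3 rose and 1 fell. Nr2c1, which encodes the testicular receptor TR2, was at 289, 277, 291 and 274 in Sav1-null and 143, 158, 139.7 and 114 in wild-type libraries. The Sav1-null libraries varied little, and the rise was 2.04-fold (limma adjusted p = 6.01e-05). Its partner Nr2c2, the TR4 gene, averaged 557 ± 53.9 in Sav1-null and 444 ± 52.3 in wild-type libraries, a 1.26-fold rise (limma adjusted p = 0.0250, 0.000239 to 0.388 over its alternatives). The Nr2c2 call was lost without Sav1-null replicate 1 (0.0550) or 3 (0.0709), without wild-type replicate 4 (0.0657) or both 2 and 3 (0.0772), with quantile normalization (0.388) and after median-of-ratios rescaling (0.383). Nr6a1, the germ cell nuclear factor gene, was at 157, 158, 184 and 184 in Sav1-null libraries, against 128, 118, 114 and 110.3 in wild-type libraries, and rose 1.45-fold (limma adjusted p = 0.00298), but turned to -0.13 with quantile normalization (0.000108 to 0.382 over its alternatives). Nr2f6 was at 842, 771, 670.0 and 1241 in Sav1-null and 1264, 1117, 1664 and 1593 in wild-type libraries and fell 1.62-fold (limma adjusted p = 0.0107), with only Sav1-null replicate 4 inside the wild-type range. This call was lost with equal totals (0.192, with 0.000508 to 0.192 over its alternatives). Nr2f2, the COUP-TFII gene of veins and interstitial cells, averaged 736 ± 165 in Sav1-null and 712 ± 117 in wild-type libraries (interval -0.37 to 0.44) and was called higher with equal totals (0.0467).

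Nr4a1 encodes NUR77, an immediate early receptor that responds within minutes to stimulation. It was at 194, 197, 172 and 259.8 in Sav1-null libraries, against 119, 108, 171 and 169 in wild-type libraries, so the lowest Sav1-null value stood next to the 2 highest wild-type values. It rose 1.46-fold (limma adjusted p = 0.0304, 0.00209 to 0.833 over its alternatives). The call was lost without Sav1-null replicate 2 (0.0563) or 4 (0.0599), without wild-type replicate 1 (0.0815) or 2 (0.0808) or both 2 and 3 (0.0855), with no filter (0.0670) and after median-of-ratios rescaling (0.187), and the direction turned with quantile normalization (-0.051). Its relative Nr4a2 was below the filter, at 17.2, 10.8, 11.9 and 13.8 in Sav1-null and 6.35, 0.838, 3.83 and 7.22 in wild-type libraries, and Nr4a3 had at most 4 reads in any library. Immediate early genes moved with Nr4a1: of 17 tested, 14 rose and the other 3 did not pass the test, and the summed level of all 20 was 20489 to 27429 in Sav1-null and 5017 to 9664 in wild-type libraries. Their part in the Nr4a1 rise was not tested.

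The atypical receptors without a DNA-binding domain were scarce. Nr0b2, the small heterodimer partner SHP that the bile acid receptor induces in liver, was at 12.5, 10.8, 11.9 and 21.7 in Sav1-null and 16.3, 18.4, 23.9 and 27.8 in wild-type libraries. It did not pass the test (log2 fold change -0.60, interval -1.28 to 0.081). It was called lower without Sav1-null replicate 4 (limma adjusted p = 0.0262), after median-of-ratios rescaling (0.0414) and with quantile normalization (0.00182), with 0.00182 to 0.504 over its alternatives. Nr0b1, an adrenal and gonadal repressor gene, had 11 reads in the Sav1-null libraries together and 1 in the wild-type libraries. Nr5a1, the master gene of steroid-making cells, Nr2e1 and Nr2e3 had no read in any library, which allows at most 3 reads each, or 2.34 to 3.09 in the deposited unit. Nr5a2 had 10 reads over the Sav1-null group and 2 over the wild-type group, and Nr2f1 had 31 over the Sav1-null group and 20 over the wild-type group. Of the 16 adrenal markers, Cyp11b1, Cyp11b2, Hsd3b6 and Pnmt were at 0 in every library, and the summed level was 1265 to 1334 in Sav1-null and 1613 to 1776 in wild-type libraries.

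Per kilobase of exon, the level order of the receptors was alike at the top in both groups. The 4 highest means were those of Vdr, Esrra, Nr1h4 and Ppara in Sav1-null libraries and of Nr1h4, Vdr, Esrra and Ppara in wild-type libraries. Levels of Vdr per kilobase were 966 to 1294 in Sav1-null and 1695 to 1893 in wild-type libraries. Those of Nr1h4 were 680.4 to 1125 in Sav1-null and 1687 to 2612 in wild-type libraries, so the ranges of Vdr and Nr1h4 overlapped in both groups. Within a library Vdr was above Nr1h4 in every Sav1-null library and in wild-type replicates 1 and 2. It was below Nr1h4 in wild-type replicates 3 and 4. For Ppara the levels per kilobase were 556 to 1251 in Sav1-null and 1232 to 1397 in wild-type libraries. They overlapped in both groups with those of Esrra (913 to 1284 in Sav1-null and 1383 to 1704 in wild-type libraries). Rxra held rank 9 in Sav1-null and rank 5 in wild-type libraries. Nr1i2 stood at rank 20 in Sav1-null and 31 in wild-type libraries and Esr1 at rank 33 in Sav1-null and 26 in wild-type libraries. These ranks are of mean levels over all 45 genes, with exon lengths from another build than that of the data.

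Related receptors were also set against each other within the same library, as a ratio that does not depend on a linear scaling of the library. For 9 pairs chosen after the values were seen, the log2 ratio was taken in each library. Rxra over Rxrb was 1.23, 1.0, 1.31 and 0.56 in Sav1-null libraries, against 2.22, 2.20, 2.07 and 2.28 in wild-type libraries, a 2.24-fold lower ratio. Rarg over Rara was -0.45, 0, 0.084 and -0.004 in Sav1-null and -1.42, -1.38, -1.96 and -2.09 in wild-type libraries, a 3.07-fold higher ratio. Both ratios separated the groups without overlap. Nr3c2 over Nr3c1 was 2.25-fold higher in Sav1-null libraries, Nr1h3 over Nr1h2 2.35-fold lower and Nr2c1 over Nr2c2 1.62-fold higher, also without overlap. Each of these 5 had a two-sided exact permutation p of 0.0286, the smallest that 4 libraries against 4 allow, and 0.0514 adjusted over the 9 pairs, so none passed the correction. With 5 of the 9 pairs at the smallest possible p none could pass, so the correction decides nothing about these ratios. The groups overlapped for Thrb over Thra (-0.80, exact p = 0.0857), Esrra over Esrrg (-0.43, exact p = 0.229), Ppara over Ppard (-0.58, exact p = 0.171) and Rarb over Rara (0.26, exact p = 0.429), given as log2 differences of Sav1-null minus wild-type. With quantile normalization, which is not linear, these differences were -0.22 for Rarb over Rara, 0.019 for Ppara over Ppard, 0.70 for Nr3c2 over Nr3c1 and 0.37 for Nr2c1 over Nr2c2.

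**Figure D3:**
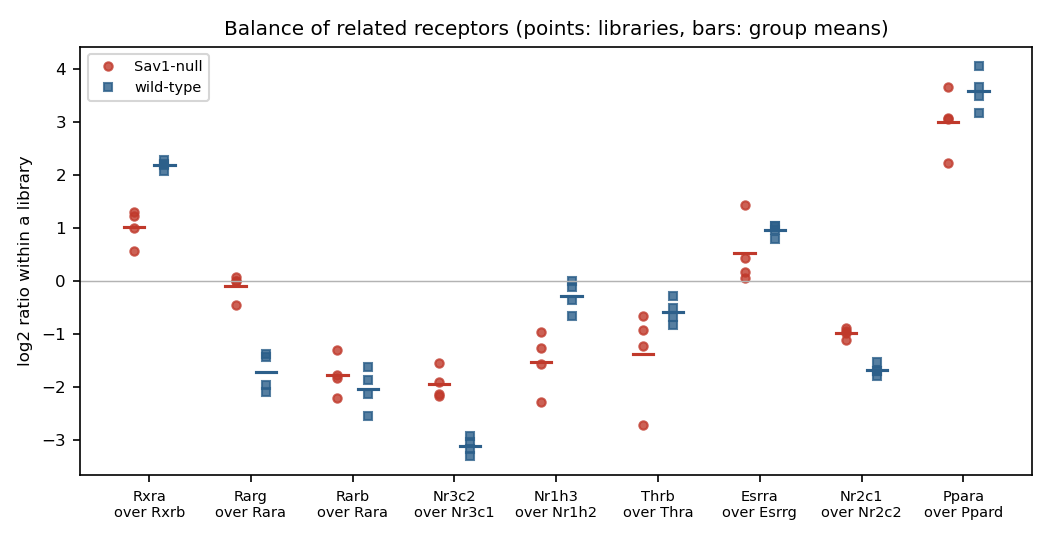
Log2 ratio of 2 related receptor genes within each Sav1-null (circles) and wild-type (squares) library, with bars at the group means. The groups lie apart for Rxra over Rxrb, Rarg over Rara, Nr3c2 over Nr3c1, Nr1h3 over Nr1h2 and Nr2c1 over Nr2c2.

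Receptors act through coactivators and corepressors, and of 33 such coregulator genes 14 rose (42.4%, beside 43.9% of all tested genes), 7 fell (21.2%, beside 25.2%) and 12 did not pass the test, shares near those of all genes. Their median log2 fold change was 0.21, beside 0.23 for all tested genes. Hr, the hairless corepressor of thyroid hormone and vitamin D receptors, was at 177 ± 14.9 in Sav1-null and 25.6 ± 6.84 in wild-type libraries, a 6.85-fold rise (limma adjusted p = 4.91e-06). The histone demethylase gene Kdm1a and the arginine methyltransferase gene Prmt1 each rose 2.0-fold, and the coactivator gene Pnrc1 1.99-fold. Ppargc1b, which encodes the PPAR and oestrogen-related receptor coactivator PGC-1β, fell 2.50-fold (limma adjusted p = 0.000494) and the acetyltransferase gene Kat2b 1.74-fold. Ppargc1a, the PGC-1α gene, was at 1464 ± 413 in Sav1-null and 1316 ± 78.8 in wild-type libraries and did not pass the test (limma adjusted p = 0.634). It was called higher without Sav1-null replicate 4 (0.31 on the log2 scale, limma adjusted p = 0.0185).

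Genes that make, carry or break down receptor ligands changed in both directions. Of 39 tested, 14 rose (35.9%, beside 43.9% of all tested genes) and 18 fell (46.2%, beside 25.2%), with a median of -0.20. Ttr, the carrier of thyroid hormone and of the retinol-binding protein, was at 209 ± 72.0 in Sav1-null and 13290.0 ± 1691 in wild-type libraries, a 66.5-fold fall (limma adjusted p = 3.74e-07). Hsd11b1, whose enzyme regenerates active glucocorticoid, fell 40.8-fold, while Hsd11b2, whose enzyme inactivates it in mineralocorticoid target cells, rose 2.53-fold (limma adjusted p = 4.86e-06 and 0.000241). The steroid dehydrogenase gene Hsd17b11 fell 4.19-fold. Aldh1a1, an enzyme that makes retinoic acid, rose 29.4-fold (1892 ± 707 in Sav1-null and 62.8 ± 23.0 in wild-type libraries) and the retinal reductase gene Rdh11 2.35-fold. Of the vitamin D enzyme genes Cyp27b1, which activates the hormone, rose 6.28-fold and Cyp24a1, which breaks it down, 2.11-fold (limma adjusted p = 0.000235 and 0.000463). Of those that add the first hydroxyl group, Cyp27a1 fell 2.53-fold (limma adjusted p = 0.000847) and Cyp2r1 did not pass the test (0.0674).

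Target genes listed for a receptor or a group of receptors did not move as 1 block. Over all target lists 210 genes other than the receptors themselves were tested, of which 81 rose (38.6%, beside 43.9% of all tested genes) and 88 fell (41.9%, beside 25.2%). Of 32 mitochondrial genes known as targets of the oestrogen-related receptors 30 fell (93.8%, beside 25.2% of all tested genes). The other 2 did not pass the test, and the median log2 fold change was -1.13. Cox7a2 fell 2.16-fold, the complex I gene Ndufv1 2.48-fold, and the citrate cycle gene Idh3b 2.24-fold. PPAR targets went both ways, with 10 of 29 higher (34.5%, beside 43.9%), 14 lower (48.3%, beside 25.2%) and a median of -0.36. Among them the fatty acid uptake gene Cd36 fell 27.1-fold and the peroxisomal enzyme gene Ehhadh 4.47-fold, the oxidation genes Cpt2 and Acadvl fell 3.0-fold and 2.23-fold, and the fatty acid hydroxylase gene Cyp4a14 and the uncoupling protein gene Ucp2 rose 88.1-fold and 4.36-fold. Proximal tubule markers, whose summed level is given with the other cell type markers, were lower in the same libraries, and their part in these falls was not tested.

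Retinoid targets rose in 11 of 19 (57.9%, beside 43.9% of all tested genes) and fell in 2 (10.5%, beside 25.2%). Their median was 0.90, with Rara and the other receptors left out of the list. Stra6, the receptor for retinol-binding protein, was at 1403 ± 558 in Sav1-null and 35.5 ± 44.1 in wild-type libraries, and it rose 58.4-fold (limma adjusted p = 5.22e-05, log2 fold change 5.87, and 6.59 without wild-type replicate 2). The retinoic acid carrier Crabp2 rose 2.79-fold, and Egr1, also an immediate early gene, 11.1-fold. The retinoic acid degrading enzyme gene Cyp26b1 fell 4.79-fold and Dhrs3, whose enzyme lowers retinal, 1.72-fold. Glucocorticoid and mineralocorticoid targets rose in 20 of 32 (62.5%, beside 43.9%) and fell in 4 (12.5%, beside 25.2%), with a median of 0.93. Of these the sodium channel subunit gene Scnn1g rose 3.33-fold, the endothelin gene Edn1 39.0-fold, the metallothionein gene Mt2 5.0-fold and Anxa1 7.13-fold, while Errfi1 and Gpx3 fell 2.89-fold and 2.85-fold. The Gpx3 call was lost with quantile normalization (limma adjusted p = 0.436) and with no filter.

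Sex steroid targets were split, 11 of 26 higher (42.3%, beside 43.9% of all tested genes) and 15 lower (57.7%, beside 25.2%). Their median was -1.60, and -1.30 without Sav1-null replicate 4. Those that fell included the androgen-driven kidney genes Slco1a1 (2.60 ± 2.54 in Sav1-null and 17769 ± 2042 in wild-type libraries), Slc7a13 (7.95 ± 6.03 in Sav1-null and 18986 ± 1670.3 in wild-type libraries), Cyp2j13 (57.2-fold) and Timd2 (5.88-fold). Abcc3 rose 65.2-fold, Muc1 11.4-fold and the oestrogen-responsive gene Greb1 1.78-fold. Xist marked the Sav1-null libraries and Y-linked transcripts the wild-type libraries, the pattern of female and male samples. Genotype, treatment and sex therefore cannot be told apart here. Drug-metabolism targets of PXR and CAR rose in 10 of 21 (47.6%, beside 43.9%) and fell in 8 (38.1%, beside 25.2%), with a median of -0.19. The export pump genes Abcc4 and Abcc3, the glucuronosyltransferase gene Ugt2b34 and the glutathione transferase gene Gsta1 rose 8.45-fold, 65.2-fold, 28.4-fold and 19.2-fold, and Cyp3a13 rose 4.17-fold. Abcc3 is in this list and in the sex steroid list, so its rise is the same value given again. Ugt1a9 fell 13.0-fold, and Cyp2b10, the standard readout of CAR in liver, had 1 read in the Sav1-null libraries together and a mean of 135 ± 76.7 in wild-type libraries (limma adjusted p = 2.50e-06).

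Sterol and bile acid targets rose in 7 of 15 (46.7%, beside 43.9% of all tested genes) and fell in 4 (26.7%, beside 25.2%). These shares were near those of all genes, and the median was 0.094. The apolipoprotein genes Apoe and Apoc1, the cholesterol exporter gene Abcg1 and the lipid transfer gene Pltp rose 14.9-fold, 8.52-fold, 2.75-fold and 8.21-fold, whereas the bile acid exporter subunit gene Ostb and the lipase gene Lpl fell 2.41-fold and 6.08-fold. Apoe and other genes of this list are also abundant in macrophages, whose 14 tested markers all rose, with a summed level of 9060.2 to 12420.3 in Sav1-null and 1252 to 2235 in wild-type libraries, and their part in these rises was not tested. Of 23 vitamin D and thyroid hormone targets 9 rose (39.1%, beside 43.9%) and 9 fell (39.1%, beside 25.2%), with a median of -0.21. Among them were the calcium channel genes Trpv5 and Trpv6, up 7.21-fold and 29.3-fold, and the osteopontin gene Spp1, up 26.8-fold. The Klotho gene Kl was down 2.43-fold and the malic enzyme gene Me1 down 5.26-fold. Without wild-type replicates 2 and 3 the log2 fold changes were 5.39 for Spp1 and 5.61 for Trpv6, in place of 4.75 and 4.87. Targets of REV-ERB and ROR rose in 8 of 21 (38.1%, beside 43.9%) and fell in 4 (19.0%, beside 25.2%), with a median of 0.12. Of these Bhlhe40, Wee1, Nfil3 and Cdkn1a rose 2.23-fold, 2.31-fold, 2.74-fold and 8.84-fold, and Tef and Hlf fell 2.64-fold and 3.64-fold. The medians of several lists turned with the scaling. With equal totals they were 0.19 for all targets, 0.18 for ligand supply, 0.028 for PPAR, 0.19 for PXR and CAR and 0.18 for the vitamin D and thyroid list. After median-of-ratios rescaling they were -0.010 for coregulators, -0.13 for sterol and bile acid targets and -0.10 for REV-ERB and ROR targets. With quantile normalization they were 0.47 for PXR and CAR, 0.11 for vitamin D and thyroid and -0.078 for REV-ERB and ROR targets. The medians of the oestrogen-related, retinoid, sex steroid and adrenal steroid lists kept their sign under the 3 scalings. Of the counts, adrenal steroid targets lower were 1 with no filter, 1 with quantile normalization and 2 without wild-type replicates 2 and 3. Quantile normalization gave 4 retinoid targets lower, 5 REV-ERB and ROR targets higher and 1 oestrogen-related receptor target higher. The genes named from the target lists had a limma adjusted p between 2.59e-08 and 0.00497.

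**Figure D4:**
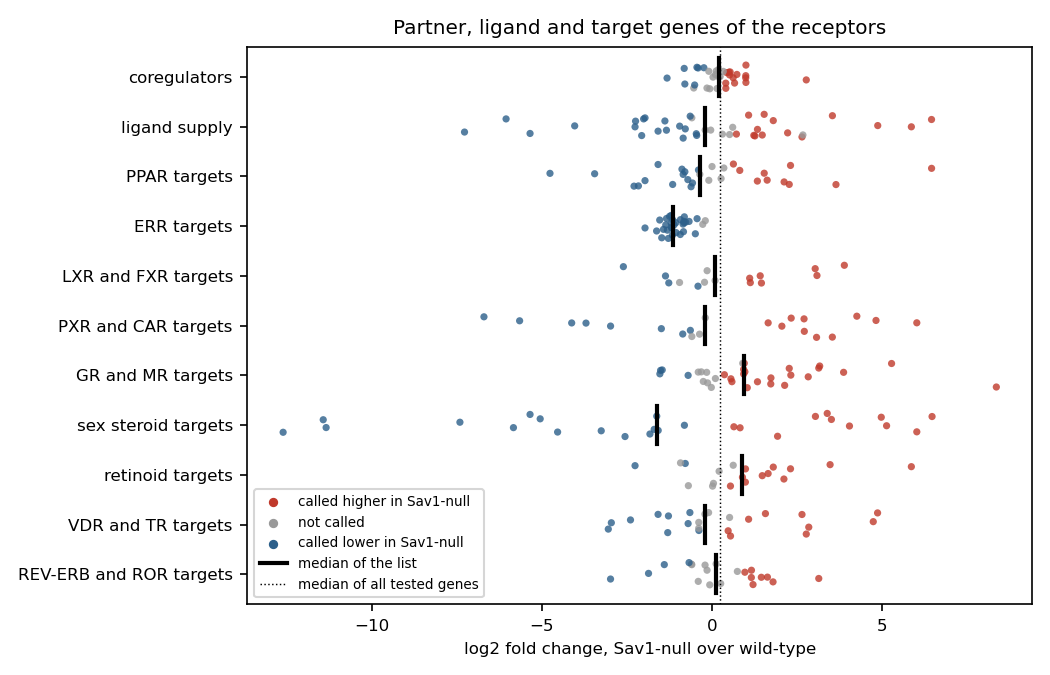
Log2 fold change (Sav1-null over wild-type) of each tested coregulator, ligand supply and target gene, 1 row of points per list, with the list's median as a bar and the median of all tested genes as a dotted line. Points of the ERR list lie to the left, with 30 of 32 called lower, while most other lists spread to both sides.

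The nuclear receptor genes Hnf4a and Hnf4g, outside the naming rule, fell. Hnf4a, the hepatocyte nuclear factor that sets proximal tubule identity, was at 10711, 7617, 10678 and 6498 in Sav1-null and 20851, 19323, 19917 and 20253 in wild-type libraries, a 2.31-fold fall (limma adjusted p = 0.000150). Hnf4g, its close relative, was at 205, 157, 158 and 112 in Sav1-null libraries, against 233, 201, 229 and 206 in wild-type libraries, and fell 1.40-fold (limma adjusted p = 0.0329). The Hnf4g call was lost with equal totals (0.592), with no filter (0.0658), without wild-type replicates 2 and 3 (0.118), without Sav1-null replicate 2 (0.0622) or 3 (0.0562) and without wild-type replicate 1 (0.0800), 3 (0.0757) or 4 (0.0534).

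Markers of several cell types also differed between the groups. The shares to set beside these and the other marker lists are 43.9% of all tested genes higher and 25.2% lower. Of 30 proximal tubule markers 26 fell (86.7%) and 4 did not pass the test, and none was at 0 in every library. Their summed level was 134194 to 400000.5 in Sav1-null and 1116009 to 1231666 in wild-type libraries, lower in all Sav1-null libraries. Of the 33 tested receptors 7 were also lower without overlap and 9 were higher (24.1% and 41.0% of all tested genes). Lymphocyte markers rose in 9 of 9 tested, with sums of 742 to 1107 in Sav1-null and 143 to 227 in wild-type libraries. Those of fibroblasts rose in 9 of 11, with sums of 5333 to 13207 in Sav1-null and 2087 to 3263 in wild-type libraries. How much of any receptor's change belongs to the proportions of these cells was not tested.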

How the data were processed

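Values are the signal that the authors deposited, 1 normalized expression level per gene and library for 21705 gene names and 8 libraries. The submitters' processing notes name RSEM, SAMtools and Picard 1.64 with build mm9. The kit was stranded per the labels' protocols, but aligner, annotation and strand setting are not stated in them. RSEM divides reads that fit several genes by an estimate, and a gene with an antisense partner is uncertain. Low values fell on steps, taken as 1 read; 92.7% to 93.3% of values below 400 lay within 0.02 read of a whole multiple, too few for a count model. Floors of 3 reads cover counting error only.

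Genes with a mean of at least 10 (13677) were compared on log2(value + 1), which understates changes of low genes, with limma 3.58.1 in R 4.3.3 (moderated variances, intensity trend, no covariate), Benjamini-Hochberg over all of them. Fold changes are antilogs of Sav1-null over wild-type. Libraries of a group differed by more than sampling noise. Lengths are exon unions of GENCODE vM21 (GRCm38). Same-numbered libraries did not deviate together in each pair, so no block was used.

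The receptors, lists and tests were chosen with earlier results of these data known. Every receptor is accounted for; from each list up to 4 called genes of the majority direction with the smallest p and up to 2 against it were named, apart from some genes that are not reported here. Hsd11b2, Cyp27b1, Cyp24a1, Cyp27a1, Cyp2r1, Ppargc1a, Cyp3a13, Greb1 and the ratio pairs were chosen after their values were seen. Alternatives were pseudocounts of 0.5 and 10, no filter and a filter of 50, 3 rescalings, no trend, the replicate number as a block, leaving out each library and, chosen after seeing the data, leaving out wild-type replicates 2 and 3, which had the higher levels of the injury marker Havcr1 within their group.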

Additional observations from a re-analysis of the deposited data

Results flagged for a closer look

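In 66 groups of 4 libraries (33 tested receptors, both groups), 6 had 1 library whose gap to its nearest neighbour was too large a part of the range of the group by Dixon's 95% critical value. Chance flags about 1 in 20 groups. Sav1-null replicate 4 accounted for 3 of them, with the highest Sav1-null value of Rxrb (1066, the other 3 from 814 to 829.9), Thra (1310.3, the others 945 to 998) and Nr0b2 (21.7, the others 10.8 to 12.5). Pparg was lowest in Sav1-null replicate 2 (8.80, the others 19.0 to 20.3) and highest in wild-type replicate 2 (52.8, the others 11.3 to 16.3). Rxra was highest in wild-type replicate 4 (4173, the others 3651 to 3738).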

How the results depend on the processing

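Counts of all genes and of receptors, coregulators, ligand supply and target genes called stayed within 1.5 times their value in 171 of 180 recomputations. Equal library totals gave 1946 in place of 3452 genes lower, 15 in place of 9 receptors higher and 5 in place of 10 lower, and 23 in place of 14 coregulators higher and 2 in place of 7 lower. Quantile normalization gave 5 receptors higher, and median-of-ratios rescaling 8 coregulators higher. Coregulators lower were 4 with no filter and 4 without wild-type replicates 2 and 3. Leaving out 1 library at a time gave 8 to 10 receptors higher and 8 to 12 lower.

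Log2 fold changes of receptors that did not pass the test turned as follows. With equal totals they were 0.26 for Esrrg, 0.36 for Ppard, 0.14 for Pparg, 0.23 for Thra, 0.26 for Nr1d1 and 0.36 for Nr1d2. After median-of-ratios rescaling they were -0.16 for Rxrb, -0.11 for Nr1h2, -0.19 for Nr2f2 and -0.12 for the coregulator Ppargc1a. With quantile normalization they were -0.018 for Rxrb, 0.12 for Nr1d2 and -0.10 for Nr2f2, and among called genes -0.094 for Rarb, -0.13 for Nr6a1 and -0.051 for Nr4a1. When single libraries were left out, Esrrg ranged from -0.23 to 0.073, Rxrb from -0.024 to 0.11, Nr1h2 from -0.046 to 0.24, Ppard from -0.17 to 0.13, Pparg from -0.45 to 0.26, Nr1d1 from -0.26 to 0.035, Nr1d2 from -0.14 to 0.18, Nr2f2 from -0.071 to 0.19 and Ppargc1a from -0.038 to 0.31. Pparg was at 0.40 without wild-type replicates 2 and 3. The cause was not tested.

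Replicate numbers did not pair the libraries (correlations of same-numbered deviations 0.14, 0.08, -0.17 and 0.13), and with the replicate block 9 receptors rose and 10 fell, as without it. The 12 receptors below the filter were not tested, and the part of depth in their low values was not tested.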
